A study of Homo sapiens with 18 samples.

Results

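Chromatin immunoprecipitation followed by sequencing (ChIP-seq) of the corepressor TLE3 and the transcription factor FOXA1 was compared in MDA-MB-453 cells, a human breast cancer line that is known to lack the estrogen receptor. The 4 libraries are 2 biological replicates per factor, chosen by the titles that name this line, out of 12 libraries with a peak list and 18 samples in the series. The other samples are the same 2 factors in the breast cancer lines SKBR3 and T47D, and inputs that were not analysed here. The series asks where TLE3 binds in luminal breast cancer lines and how far it shares its sites with FOXA1.

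Overlapping peaks of the replicates of a factor were joined, and a joined region to which both replicates contributed was called a site, which gave 21768 TLE3 sites and 135315 FOXA1 sites. All 4 libraries came from cells fixed with formaldehyde, and the labels name no treatment or genetic change. The TLE3 cells were first treated with a second crosslinker, Diagenode ChIP Cross-link Gold, which the FOXA1 cells were not. The antibodies also differed, from Proteintech for TLE3 and from Diagenode for FOXA1. Factor, antibody and crosslinking therefore cannot be told apart in any difference between the factors. The titles call the replicates biological, but the labels do not say whether they came from separate cultures, so p-values measure only the spread between these libraries.

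FOXA1 is a forkhead transcription factor that can bind its motif on nucleosomes and open chromatin for other factors in the luminal cells of the breast. TLE3 belongs to the Groucho family. These corepressors do not bind DNA themselves and are brought to it by partners such as TCF, RUNX, HES and forkhead factors, where they recruit histone deacetylases.

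The DNA next to gene starts is shown for the 4 highest ranked TLE3 sites that overlapped a promoter window and for the 2 highest ranked FOXA1 sites there that overlapped no TLE3 peak of either library, because these are places where sequence, TLE3 and FOXA1 can be read together. Each sequence is the 250 bases before a RefSeq start (GRCh38.p14, the build named hg38 by the submitters), 5′ to 3′ on the strand of the gene, with matches to the forkhead motif in capitals.
LOC107986092: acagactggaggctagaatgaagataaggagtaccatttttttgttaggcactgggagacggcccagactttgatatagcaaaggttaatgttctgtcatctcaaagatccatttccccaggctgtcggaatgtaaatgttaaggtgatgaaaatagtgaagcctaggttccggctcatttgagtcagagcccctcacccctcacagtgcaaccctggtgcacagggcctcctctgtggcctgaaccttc
LINC02889: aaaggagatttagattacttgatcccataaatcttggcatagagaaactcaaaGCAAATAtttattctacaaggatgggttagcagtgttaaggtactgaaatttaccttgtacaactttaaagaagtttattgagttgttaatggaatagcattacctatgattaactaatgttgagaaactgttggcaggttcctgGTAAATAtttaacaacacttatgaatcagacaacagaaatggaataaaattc
IGF1: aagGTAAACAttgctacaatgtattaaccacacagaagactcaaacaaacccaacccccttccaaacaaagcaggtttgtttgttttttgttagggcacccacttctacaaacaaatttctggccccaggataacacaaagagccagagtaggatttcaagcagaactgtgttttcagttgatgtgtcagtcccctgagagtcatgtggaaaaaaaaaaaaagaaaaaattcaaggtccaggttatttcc
ATOSA: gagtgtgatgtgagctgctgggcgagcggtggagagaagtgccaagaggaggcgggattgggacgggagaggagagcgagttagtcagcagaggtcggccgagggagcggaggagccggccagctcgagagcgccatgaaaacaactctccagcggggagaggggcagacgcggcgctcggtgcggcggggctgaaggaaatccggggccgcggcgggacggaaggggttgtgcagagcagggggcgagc
TPRG1L: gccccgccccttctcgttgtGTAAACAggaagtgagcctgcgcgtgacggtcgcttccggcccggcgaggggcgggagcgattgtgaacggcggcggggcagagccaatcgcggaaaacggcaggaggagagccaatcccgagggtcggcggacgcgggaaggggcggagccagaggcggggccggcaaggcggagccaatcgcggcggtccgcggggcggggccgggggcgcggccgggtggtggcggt
EXOSC2: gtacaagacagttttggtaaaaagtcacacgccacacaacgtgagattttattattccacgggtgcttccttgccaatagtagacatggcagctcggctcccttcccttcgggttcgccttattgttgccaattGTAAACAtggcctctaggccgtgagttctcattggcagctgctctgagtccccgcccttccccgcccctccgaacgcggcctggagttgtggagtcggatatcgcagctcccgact

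The TLE3 sites at these starts, which were chosen by their TLE3 rank, stood high in the FOXA1 lists too. A peak's percentile is its rank by the authors' own score within its list, where 100 is the highest scored peak. At the start of LOC107986092 (chr3:58471123-58471372, plus strand) the best peak stood at percentiles 99.6 and 99.1 in TLE3 replicates 1 and 2 and at 99.8 and 99.7 in FOXA1 replicates 1 and 2. At the noncoding gene LINC02889 (chr7:17558910-17559159, minus strand) the TLE3 percentiles were 99.6 and 99.1 and both FOXA1 percentiles 99.5. IGF1 (chr12:102481748-102481997, minus strand), which encodes insulin-like growth factor, had 99.3 and 98.3 for TLE3 and 96.8 and 95.9 for FOXA1. ATOSA (chr15:52678758-52679007, minus strand) had 98.8 and 98.7 for TLE3 and 98.7 and 98.2 for FOXA1.

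The motif was not limited to sites that held TLE3. The FOXA1 site at TPRG1L (chr1:3624765-3625014, plus strand) stood at percentiles 99.8 and 99.5 in the FOXA1 libraries, with no TLE3 peak, and its window held 1 forkhead match. The site at EXOSC2 (chr9:130693510-130693759, plus strand), a subunit gene of the RNA exosome, stood at 99.7 and 99.1 and also had 1 match. Of the 4 TLE3 windows, LINC02889 had 2 matches, IGF1 had 1, and LOC107986092 and ATOSA had 0 in these 250 bases.

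FOXA1 lists were longer than TLE3 lists by a wide margin. TLE3 replicates 1 and 2 had 42698 and 22706 peaks, and FOXA1 replicates 1 and 2 had 188029 and 153024, so the ranges of the factors did not overlap. The difference of TLE3 from FOXA1 was −2.45 on the log2 scale, a 5.45-fold larger geometric mean for FOXA1. With 2 libraries against 2, an exact two-sided permutation test cannot go below p = 0.333, and this is the p it gave here and for the other differences between factors that follow. The lists hold no read counts, so the depth of each library is unknown.

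Replicates of both factors shared their ranking. TLE3 replicate 2 was held almost whole in replicate 1, with 97.0% of its peaks overlapped, against 51.0% of those of TLE3 replicate 1. For FOXA1, 72.7% of the peaks of replicate 1 and 90.2% of replicate 2 were overlapped. Over sites, the Spearman correlation of percentiles between replicates was 0.874 for TLE3 (n = 21768) and 0.916 for FOXA1 (n = 135315), as a description across sites, which are not independent samples.

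Nearly every TLE3 site lay on a FOXA1 site. Among all 21768 TLE3 sites, 21622 (99.3%) overlapped one, and of the 146 others 97 overlapped a peak of 1 FOXA1 library and 49 overlapped none. By library, a FOXA1 site was overlapped by 96.7% of peaks in TLE3 replicate 1 and by 98.5% in replicate 2. In 90.2% of the 21650 overlapping pairs the TLE3 site lay wholly inside the FOXA1 site. Their centres were a median of 56 bp apart (quartiles 25 and 114), against 33 bp between the 2 TLE3 lists and 31 bp between the 2 FOXA1 lists. With each list shortened to its 22706 highest scored peaks, as many as the shortest list holds, 71.8% of TLE3 sites overlapped a FOXA1 site, and with centres required within 250 bp 90.7% did.

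The 146 TLE3 sites without a FOXA1 site were low in the TLE3 ranking and near gene starts more often. Their median TLE3 percentile was 24.5, against 62.2 for TLE3 sites on FOXA1, and their median width 375 bp against 529 bp. Off chromosome 8, 9.59% of the lowest ranked 10% of all TLE3 sites had a centre within 1 kb of a gene start. In the other classes of 10% by TLE3 rank the share was 2.72% to 4.86%. It was 4.03% for TLE3 sites on FOXA1, against 30.7% for the 146. The highest ranked of them lay 28419 bp from SMURF2, which encodes a ubiquitin ligase of the TGF-beta pathway (chr17:64690457-64690995), at percentiles 80.5 and 80.0 in TLE3 replicates 1 and 2. The next lay inside RTN4RL1, a Nogo receptor relative (chr17:2011475-2012040), at 78.5 and 77.6. The others of the first 5 lay 1955 bp from the hair protein gene KRTAP19-8, inside the semaphorin gene SEMA5B and inside NCMAP, which encodes a myelin protein, with mean percentiles from 61.8 to 67.9. In the other lines, the RTN4RL1 region was a FOXA1 site in both SKBR3 and T47D, and the SEMA5B region in SKBR3.

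The converse did not hold, and which FOXA1 sites had TLE3 followed the FOXA1 rank closely. Of all 135315 FOXA1 sites, 21364 (15.8%) held a TLE3 site. A peak of TLE3 replicate 1 was found at 40133 of them (29.7%), which is the value without TLE3 replicate 2, and a peak of replicate 2 at 21820 (16.1%). With equally long lists the share was 63.2%. By deciles of FOXA1 rank, 10 classes of equal size, the share with a TLE3 site rose from 0.318% in the lowest decile through 2.39% in the fifth and 19.95% in the eighth to 42.2% in the ninth and 77.3% in the highest. The rise was present with each TLE3 list alone, from 2.68% to 92.1% for replicate 1 and from 0.421% to 77.5% for replicate 2. All of the 100 highest ranked FOXA1 sites held a TLE3 site, as did 97.7% of the first 1000, 91% of the first 5000 and 68.3% of the first 20000.

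**Figure D1:**
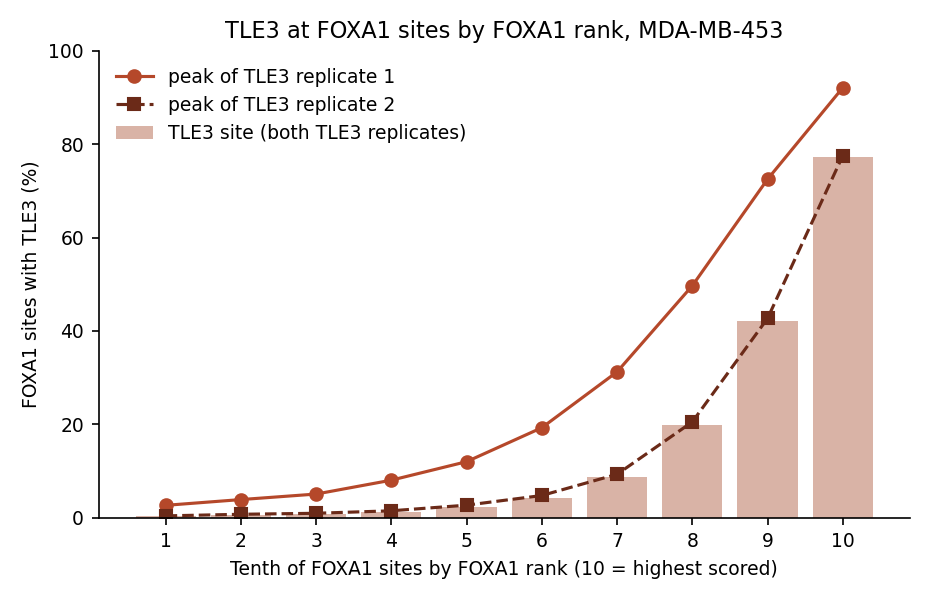
FOXA1 sites of MDA-MB-453 were split by FOXA1 rank into 10 classes of equal size (deciles; x axis, 10 is the highest scored), and the y axis gives the percentage of each class that held TLE3. Bars stand for TLE3 sites, which need both TLE3 replicates, and lines for a peak of TLE3 replicate 1 (circles) or replicate 2 (squares). The bars climb from 0.318% to 77.3%, with most of the rise in the 3 highest classes, and replicate 1 lies above replicate 2 in each class.

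The order also ran within the shared sites. TLE3 sites were split by their own rank, and the FOXA1 percentile beneath them had a median of 80.5 in the lowest TLE3 decile, 89.8 in the fifth and 98.7 in the highest. Of the 2176 sites of the highest TLE3 decile, 0 lay on a FOXA1 site below the middle of the FOXA1 ranking. Across the 21622 shared sites the Spearman correlation of the 2 factors' percentiles was 0.616, and it lay between 0.576 and 0.623 for the 4 pairs of one TLE3 and one FOXA1 library. The points share chromatin and any effect of local read coverage, whose part was not tested.

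The 10 highest ranked TLE3 sites were spread over 8 chromosomes, and each overlapped a FOXA1 site of MDA-MB-453, SKBR3 and T47D. T47D had 28354 TLE3 sites in all and SKBR3 6976, where a site also needs a peak of the library labelled TLE3 replicate 2. The share of all MDA-MB-453 TLE3 sites that overlap a TLE3 site of these lines was not worked out. Each of the 10 overlapped a TLE3 site of T47D, and 0 of the 10 overlapped one of SKBR3. The first lay inside KCNH5, a voltage-gated potassium channel gene (chr14:62800199-62801196), with percentiles of 99.99 and 100 in the TLE3 libraries and 99.91 and 99.96 in the FOXA1 libraries. The second lay inside MITF, which encodes a transcription factor of melanocytes (chr3:69832779-69834390), at 99.99 and 99.996 for TLE3 and 99.5 and 99.9 for FOXA1. The third lay 5487 bp from DUSP4, a phosphatase of MAP kinases (chr8:29326849-29328304), at 99.995 and 99.98 for TLE3 and 99.99 and 99.99 for FOXA1.

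The other 7 were outside FAT4, an atypical cadherin gene, LUZP2, LOC124902561, ZNF385D and BBOX1, an enzyme gene of carnitine synthesis, and inside the cadherin gene CDH11 and the fatty acid transporter gene SLC27A2. Their distance to the nearest end of the gene ran from 20423 bp at SLC27A2 to 329698 bp at ZNF385D. The 9 of the 10 that lie off chromosome 8 were 28332 to 576307 bp from the nearest gene start in the RefSeq table. No site among them was thus near a listed start, and starts were listed for 15812 of the 19974 protein-coding genes.

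A few strongly scored FOXA1 sites held no TLE3. In the highest FOXA1 decile, 1042 of 13531 sites overlapped no TLE3 peak of either library. The first lay inside PCMTD1, 119 bp from a gene end (chr8:51898471-51899663), at FOXA1 percentiles 99.8 and 99.7. The second lay inside BACH2, which encodes a repressor known from B cells (chr6:89940147-89941037), at 99.9 and 99.5. The third overlapped the promoter of TPRG1L and the end of its neighbour MEGF6 (chr1:3624193-3625261) at 99.8 and 99.5. The fourth lay 13315 bp from CYP7A1, the rate-limiting enzyme of bile acid synthesis (chr8:58512943-58514013), at 99.6 and 99.6, and the fifth 107 bp from EXOSC2 (chr9:130693205-130694100) at 99.7 and 99.1. Each of the 5 was a FOXA1 site in SKBR3 and T47D too, as were 85.3% and 93.0% of sites in this decile without a TLE3 site. The PCMTD1 region was a TLE3 site in T47D, and the other 4 were not.

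FOXA1 peaks at TLE3 sites were higher scored and wider than other FOXA1 peaks. Their median score was 214 against 16.7 in FOXA1 replicate 1 and 160 against 15.2 in replicate 2, on the authors' score, a quantity that no source used here names. FOXA1 peaks on TLE3 sites outranked other FOXA1 peaks with a probability of 0.941 in replicate 1 and 0.926 in replicate 2 (0.934 ± 0.0106, SD, n = 2), where 0.5 means no difference. It was 0.673 and 0.645 among peaks of similar width, and 0.743 with equally long lists. In single width deciles it ran from 0.447 to 0.859 in replicate 1 and from 0.429 to 0.845 in replicate 2, so in some classes of width the FOXA1 peaks at TLE3 sites ranked lower than the others.

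Width and rank rose together with the number of TLE3 libraries that had a peak. FOXA1 sites with no TLE3 peak (94729 sites, 70.0%) had a median percentile of 47.1 and a median width of 440 bp. Those with a peak of TLE3 replicate 1 alone (18766 sites, 13.9%) had 77.2 and 687 bp, and those with both TLE3 replicates (21367 sites) had 91.7 and 913 bp. The 453 sites with TLE3 replicate 2 alone lay between, at 67.7 and 610 bp. With a TLE3 site the median width was 442 bp more than without, 913 against 471 bp, and within deciles of FOXA1 rank the mean difference was 119 bp. FOXA1 sites without TLE3 lay a median of 37.4 kb from the nearest TLE3 site.

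Over whole lists the widths of the 2 factors were close, and how much wider FOXA1 peaks were depended on how the lists were cut. Median widths were 393 and 353 bp in TLE3 replicates 1 and 2 and 401 and 410 bp in FOXA1, with no overlap between the factors and a difference of −32.5 bp (373 ± 28.3 against 405.5 ± 6.36 bp, SD, n = 2 each). With TLE3 replicate 1 alone it was 393 against 405.5 bp, and with TLE3 replicate 2 alone −52.5 bp. With lists of 22706 peaks the medians were 512 and 353 bp for TLE3 and 873 and 846 bp for FOXA1, a difference of −427 bp (exact permutation p = 0.333, the smallest possible, n = 2 each). That cut keeps all of TLE3 replicate 2 but only the highest scored part of the FOXA1 lists. With the upper 50% of each list by score the difference was −97 bp.

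Both factors lay mostly away from gene starts. The share of peaks with a centre within 1 kb of a RefSeq gene start was 5.98% and 4.38% in TLE3 replicates 1 and 2 and 7.54% and 7.22% in FOXA1, so TLE3 was lower in both libraries. The difference was −2.20 percentage points (5.18 ± 1.13 against 7.38 ± 0.222, SD, n = 2 each), −1.40 without TLE3 replicate 2, and −1.59 with equally long lists. Among sites, the median distance to a start was 39.4 kb for TLE3 and 37.2 kb for FOXA1, and 24.3% and 24.4% lay more than 100 kb away. Peaks inside a protein-coding gene made up 48.4% and 48.3% in the TLE3 libraries and 48.2% and 48.1% in the FOXA1 libraries.

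**Figure D2:**
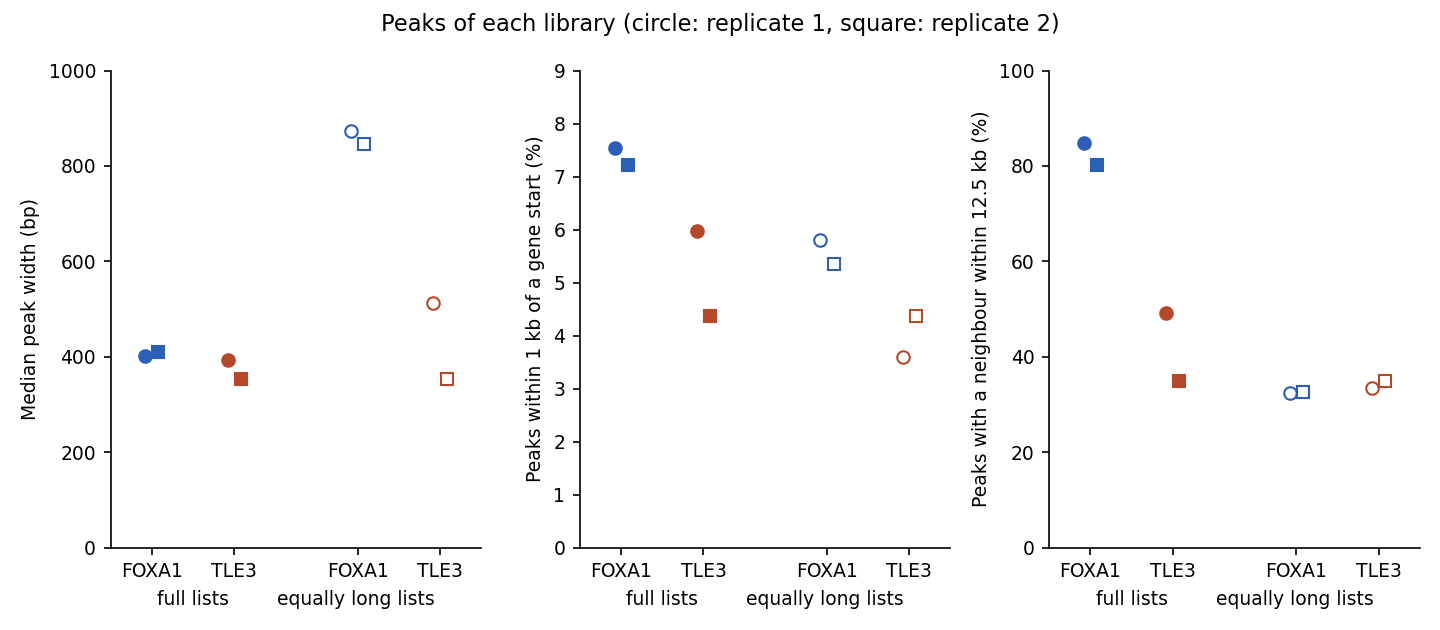
Each symbol is 1 library (circles replicate 1, squares replicate 2; blue FOXA1, red TLE3), with filled symbols for full lists and open symbols for lists shortened to their best 22706 peaks. The panels give the median peak width in bp, the percentage of peaks within 1 kb of a gene start off chromosome 8, and the percentage of peaks with another peak of the same list within 12500 bp. FOXA1 is wider at equal length (873 and 846 against 512 and 353 bp), TLE3 is lower near starts, and the gap in neighbours seen in full lists closes at equal length.

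The difference in closeness to gene starts ran the other way in the other lines. In T47D, 14.3% and 16.5% of TLE3 peaks and 8.23% and 6.80% of FOXA1 peaks were near a start, and in SKBR3 6.17% and 13.1% against 5.99% and 5.98%. TLE3 minus FOXA1 was −2.20 points in MDA-MB-453 and 5.75 points in the other lines, a difference of −7.95. An exact two-sided permutation of line labels over single libraries within each factor did not pass (p = 0.0711, 225 arrangements, Benjamini-Hochberg adjusted p = 0.196 over 4 measures). That permutation treats the replicates of a line as independent, so it does not measure the spread between lines. The library labelled SKBR3 TLE3 replicate 2 held 94363 peaks, against 21149 in SKBR3 TLE3 replicate 1. Without that library the difference was −7.75 (exact permutation p = 0.147, adjusted p = 0.293).

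Among FOXA1 sites, closeness to a gene start with and without TLE3 depended on the FOXA1 rank. Over all sites, 4.09% of those with TLE3 and 8.02% of those without were within 1 kb of a start, a difference of −3.92 points. In the highest FOXA1 decile the shares were 3.39% and 10.97%, in the ninth 3.85% and 8.22%. The order was turned in the 5 lowest deciles, where 23.3%, 20.5%, 17.6%, 12.7% and 9.35% of sites with TLE3 were near a start and 7.79% to 8.01% of those without. These low classes hold few sites with TLE3 off chromosome 8, from 43 in the lowest to 310 in the fifth. Averaged with equal weight over the 10 deciles the difference was +2.37 points, so the sign depends on the weighting. Inside genes the shares over all sites were close, with 48.1% with TLE3 and 48.4% without (−0.249 points). There too the sign turned with equal weight over the deciles, to +1.42 points. The lowest decile had 58.1% with TLE3 (43 sites) against 48.1% without, and the highest 47.4% against 48.9%.

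**Figure D3:**
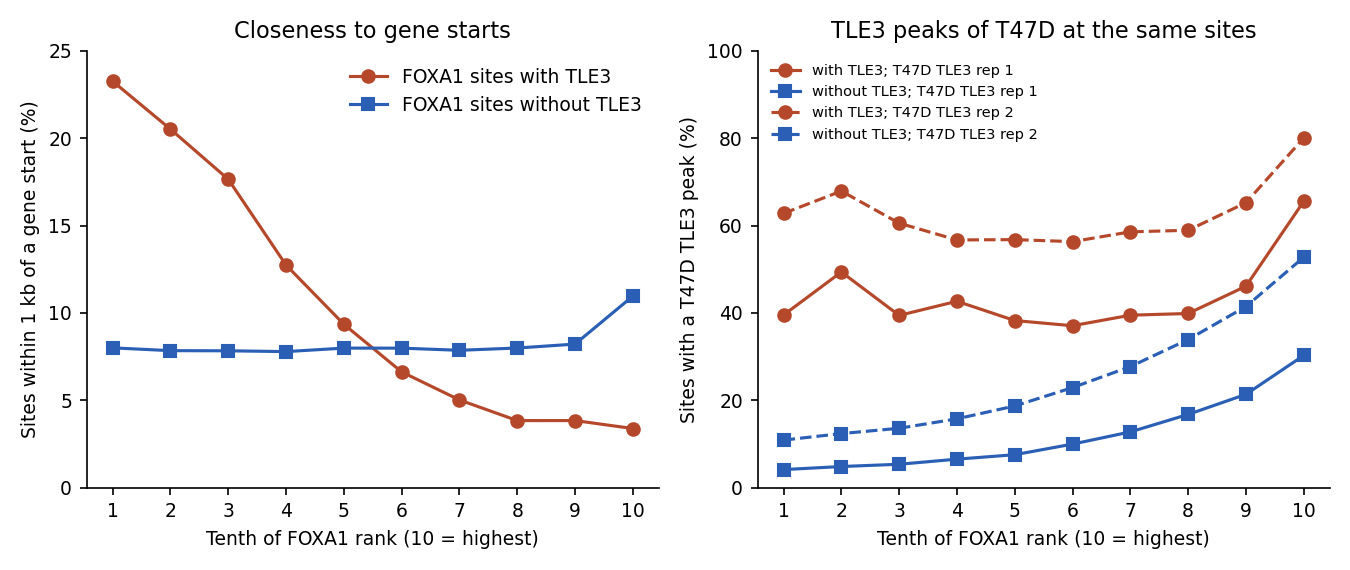
The x axis of both panels is the decile of FOXA1 rank in MDA-MB-453 (10 is the highest). The left panel gives the percentage of FOXA1 sites within 1 kb of a gene start for sites with (red) and without TLE3 (blue), which cross between classes 5 and 6. The right panel gives the percentage of the same sites that overlap a TLE3 peak of T47D, replicate 1 (solid) or 2 (dashed), and there the sites with TLE3 in MDA-MB-453 lie above those without in each class.

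FOXA1 sites with TLE3 in MDA-MB-453 were often TLE3 peaks in T47D, also at the same FOXA1 rank. A TLE3 peak of T47D was found at 54.1% (replicate 1) and 70.9% (replicate 2) of FOXA1 sites with TLE3 and at 9.76% and 21.5% of those without. With equal weight for each decile of FOXA1 rank the mean differences were 31.8 and 37.4 points, and sites with TLE3 were higher in each of the 10 deciles. For SKBR3 TLE3 replicate 1 the shares were 37.8% and 5.94%, and 23.2 points within deciles. For the library labelled SKBR3 TLE3 replicate 2 they were 19.2% and 21.7%, and within deciles the difference was 4.26 points with equal weights and −9.48 points weighted by sites with TLE3. In that library, sites with TLE3 were higher in the 6 lowest deciles and lower in the 4 highest.

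FOXA1 binding in the other lines, at the same FOXA1 rank in MDA-MB-453, did not follow TLE3 in this way. FOXA1 sites with TLE3 were FOXA1 sites in SKBR3 for 69.3% and in T47D for 76.4%, against 36.7% and 49.3% without TLE3. For SKBR3 the mean difference within deciles of FOXA1 rank was 4.37 points with equal weights and −3.77 points with deciles weighted by their sites with TLE3, so the sign depends on the weighting. Sites with TLE3 were lower in the 3 highest deciles, with 82.4% against 85.3%, 62.7% against 71.4% and 54.1% against 59.1%, and higher in the other 7. For T47D the difference was −7.94 points with equal weights and −5.95 weighted. There, sites with TLE3 were lower in each decile, for example 90.9% against 93.0% in the highest and 72.5% against 80.6% in the ninth. With peaks of T47D FOXA1 replicate 1 alone they were lower in 7 of 10 deciles (−3.31 points), and with replicate 2 alone in all 10 (−11.3 points).

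Clustering followed the number of sites. Another peak of the same list lay within 12500 bp for 49.3% and 35.0% of peaks in TLE3 replicates 1 and 2 and for 84.7% and 80.3% in FOXA1, a difference of −40.4 points. With equally long lists the values were 33.4% and 35.0% for TLE3 and 32.5% and 32.7% for FOXA1, and the difference turned to 1.64 points. Among sites, 32.9% of TLE3 sites had such a neighbour, and 31.5% of the 21768 highest ranked FOXA1 sites. The largest cluster joined by this distance held 10 TLE3 sites, 57 FOXA1 sites, or 8 among those 21768 highest ranked FOXA1 sites.

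TLE3 was found at a higher share of FOXA1 sites in FOXA1 clusters than at lone sites, and averaged over rank deciles the shares lay close together. The share was 12.96% of FOXA1 sites that stood alone (30937 sites), 14.9% in clusters of 2, 16.6% in clusters of 3 to 5, 18.01% in clusters of 6 to 10, 18.5% in clusters of 11 to 20 and 18.3% in clusters of 21 or more (1139 sites). Averaged over rank deciles it was 15.5% at lone sites and 15.8%, 16.1% and 15.8% in the next 3 classes, slightly higher, and 14.7% and 14.04% in the 2 classes of largest clusters, which were lower. Across chromosomes the share of FOXA1 sites with TLE3 ran from 14.1% on chromosome 19 to 17.3% on chromosome 20.

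The cluster with most TLE3 sites spanned 42.3 kb over the 3′ part of TPRG1 (chr3:189292585-189334905), with 10 TLE3 sites among 15 FOXA1 sites, of which 9 held TLE3. The second spanned 31.6 kb over SPDEF, an ETS factor gene of luminal and secretory cells (chr6:34536378-34567946), with 7 TLE3 sites on 7 of its 8 FOXA1 sites. A cluster at ITPRIPL2 (chr16:19110781-19138996) held 7 TLE3 sites and 10 FOXA1 sites. One over THRAP3, which encodes an RNA processing factor (chr1:36232426-36269778), held 6 and 12, and one 137 kb from TOMM20, a mitochondrial import receptor gene (chr1:234957372-234987771), held 6 and 9.

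At SPDEF the sites of both factors could be followed one by one. Within 50 kb of either gene end there were 12 FOXA1 sites, and 8 of them held TLE3. The FOXA1 site at the start of the gene, with its centre at −0.032 kb, stood at percentiles 99.2 and 98.9 in the FOXA1 libraries, and the TLE3 site on it at 78.2 and 47.2 in the TLE3 libraries. The best TLE3 site lay 9.43 kb into the gene, at 94.2 and 91.6 for TLE3 and 95.9 and 93.5 for FOXA1. A FOXA1 site 42.3 kb upstream held no TLE3 site at FOXA1 percentiles of 94.7 and 94.2. The site with the highest FOXA1 rank was thus not the one with the highest TLE3 rank.

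**Figure D4:**
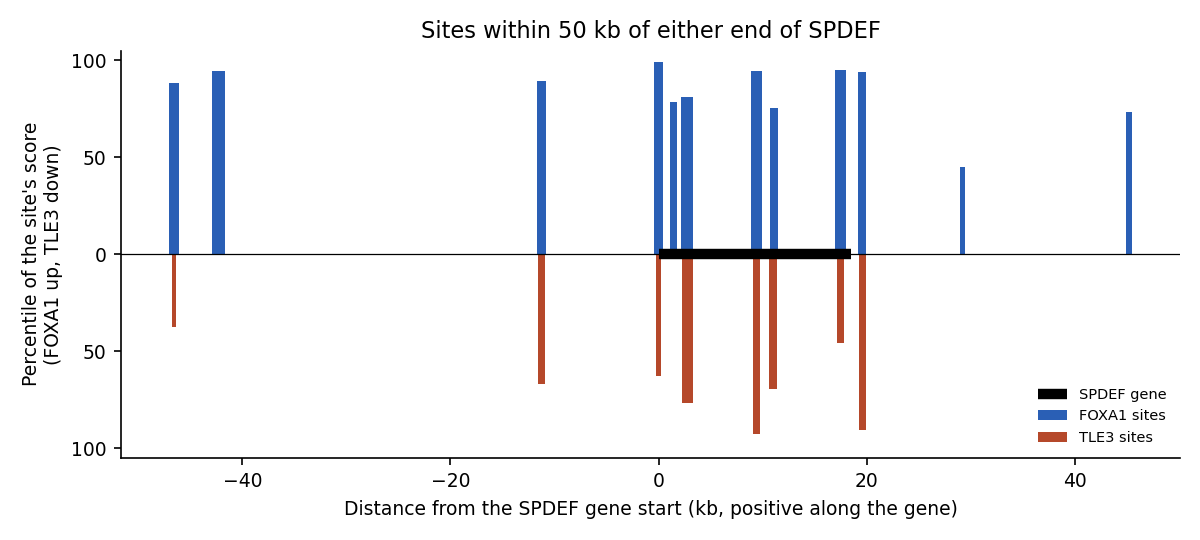
Sites within 50 kb of either end of SPDEF are drawn by distance from the gene start in kb (x axis, positive along the gene, black bar the gene). The height of each bar is the mean percentile of the site over the 2 replicates, FOXA1 upwards in blue and TLE3 downwards in red. There are 12 FOXA1 and 8 TLE3 sites, each TLE3 site lies opposite a FOXA1 site, and the 4 FOXA1 sites without TLE3 include 1 with a mean percentile of 94.5.

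Most protein-coding genes had a FOXA1 site within 50 kb of either gene end, and a smaller share had TLE3. FOXA1 was near 18977 of 19974 genes (95%), TLE3 near 10667 (53.4%), 8310 genes had FOXA1 and no TLE3, 0 had TLE3 without FOXA1, and 997 had neither. The share with TLE3 was 73.9% without TLE3 replicate 2, 20.6% with a 10 kb window and 71.7% with a 100 kb window. It rose with the number of FOXA1 sites near the gene, from 16.2% of genes with 1 or 2 through 36.9% (3 to 5), 63.7% (6 to 10) and 85.8% (11 to 20) to 98.1% of those with 21 or more. A site near a gene does not measure its expression. Since the lists differ in FOXA1 numbers, each was also read against the share of all genes with the same numbers of FOXA1 sites.

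Luminal identity genes were the list with most TLE3. A TLE3 site was near 23 of 24 members, and a FOXA1 site near all 24, with a median of 17 FOXA1 sites per gene against 6 over all genes. Genes with as many FOXA1 sites had TLE3 for 85.7%. TLE3 was at 85 of the 386 FOXA1 sites near the list (22.02%), against 15.8% of all FOXA1 sites. Shares close to that stood in other lists, with 20.9% for DNA-binding Groucho partners, 20.7% for basal identity, 20.4% for Groucho family and corepressor genes, and 15.7% to 20% in the rest apart from genes of other cell types. The leading member was FOXA1 itself, with 7 TLE3 and 27 FOXA1 sites nearby and a best TLE3 site 45946 bp from the gene (chr14:37640715-37641674). That site stood at 99.7 in both TLE3 libraries and at 99.6 and 99.8 in the FOXA1 libraries.

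ELF3, an epithelial ETS factor, followed with 6 TLE3 and 16 FOXA1 sites and percentiles of 98.2 and 98.5 in the TLE3 libraries. AGR2 and AGR3, secretory pathway disulfide isomerase genes, share their best TLE3 site, at 98.7 and 96.4. XBP1, a factor of the secretory stress response, had 7 TLE3 and 22 FOXA1 sites with a best TLE3 site at 97.3 and 96.1. SPDEF had 8 and 12, with 94.2 and 91.6. ESR1, the estrogen receptor gene, had 17 FOXA1 sites and 1 TLE3 site, inside the gene, at 90.4 and 72.2. KRT8, a simple epithelial keratin, had 5 TLE3 and 18 FOXA1 sites with 85.1 and 72.7, and GATA3, a luminal transcription factor, had 3 and 17 with 76.4 and 45.9. MUC1, a surface mucin gene, had 12 FOXA1 sites and no TLE3 site, and was the member without one.

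Among apocrine and steroid-responsive genes, TLE3 was near 16 of 20 members and FOXA1 near all 20, and genes with as many FOXA1 sites had TLE3 for 72.2%. UGT2B11 led with 99.1 and 97.1 in the TLE3 libraries. CLCA2, a chloride channel regulator gene, had 97.8 and 96.0, and UGT2B28 had 97.5 and 95.2. Members with no TLE3 site included ZBTB16 (10 FOXA1 sites), GGT1 (7) and the prostate antigen gene KLK3 (3).

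For ERBB and MAP kinase feedback genes the counts were 16 of 20 for TLE3 and 20 of 20 for FOXA1, against 71.4% for TLE3 at the same FOXA1 numbers. DUSP4 led, as given above, with 3 TLE3 and 13 FOXA1 sites. ERBB2, the receptor gene known as HER2, had 7 TLE3 sites among 18 FOXA1 sites, and shares its best TLE3 site with its neighbour GRB7, an adaptor gene, at 98.8 and 98.7 (chr17:39769729-39770665). The kinase pathway inhibitor SPRED1 had 98.0 and 96.0. EREG (10 FOXA1 sites), ETV5 (4), SPRY2 (2) and NRG1 (1) had no TLE3 site.

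Genes of the Groucho family and other corepressors had TLE3 for 14 of 18 members, FOXA1 for 18, and 67.5% at the same FOXA1 numbers. The TLE3 gene had 5 TLE3 sites among 11 FOXA1 sites. Its best TLE3 site lay inside the gene (chr15:70093362-70093975) at 93.8 and 83.0 in the TLE3 libraries and 98.2 and 95.4 in the FOXA1 libraries. Its relative TLE1 had 6 among 29, with 90.2 and 84.2. The corepressor gene CTBP2 had 97.7 and 94.6 and the deacetylase gene HDAC1 94.9 and 84.4. SIN3A, HDAC3, KDM1A and CTBP1 had FOXA1 sites (7, 5, 5 and 1) and no TLE3 site.

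Genes of DNA-binding Groucho partners had TLE3 for 14 of 22 and FOXA1 for 20, against 58.0%. HEY2, a NOTCH-induced repressor, led with 97.4 and 96.0, then PRDM1 with 97.5 and 95.3 and TCF7L1 with 93.5 and 92.2. PAX2 (7 FOXA1 sites), HEY1 (6) and TCF7 (6) had none. WNT and NOTCH signalling genes had TLE3 for 19 of 22 and FOXA1 for 22, against 63.1%, and were the list with the widest gap above that share. The receptor gene FZD4 had 96.9 and 95.0, the feedback inhibitor AXIN2 95.1 and 95.5, the ligand genes WNT7B 95.9 and 93.2 and DLL4 95.8 and 91.9. FZD7 (4 FOXA1 sites), WNT4 (3) and JAG2 (1) had no TLE3 site.

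TGF-beta and epithelial-mesenchymal transition genes had TLE3 for 14 of 20 and FOXA1 for 20, against 61.1%. The ligand gene TGFB2 had 7 TLE3 and 25 FOXA1 sites, with a best site at 98.5 and 97.5 (chr1:218480476-218481492), and BMP7, TGFB3 and the inhibitory SMAD7 followed, with 93.2 and 91.1 for BMP7. CDH2 (8 FOXA1 sites), TWIST2 (5) and ZEB1 (4) had none. Basal identity genes had TLE3 for 12 of 20 and FOXA1 for 19, against 47.1%, with a median of 4 FOXA1 sites. Within 10 kb 2 of these 20 had TLE3, against 20.6% of all protein-coding genes. ITGB4 had 99.4 and 99.7 and LAMA3, a laminin chain gene, 99.7 and 98.8, while SOX10 had 97.4 and 95.7 and TP63 96.5 and 90.7. KRT5, a keratin of basal cells, had neither factor within 50 kb. CAV1 (3 FOXA1 sites) and CAV2 (2) had FOXA1 alone.

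The last 3 lists lay nearest to their background. Forkhead genes had TLE3 for 11 of 20 and FOXA1 for 20, against 60.5% for TLE3. After FOXA1 they were led by FOXN3, FOXQ1 and FOXO3, and FOXF2, FOXJ2 (6 FOXA1 sites each) and FOXA3 (5) had none. Cytosolic ribosomal protein genes had TLE3 for 15 of 24, against 60.9%, led by RPLP1, RPL18, RPL11 and RPLP0, and RPS18, RPS6 and RPL8 had FOXA1 alone. Genes of other cell types had TLE3 for 12 of 24 and FOXA1 for 23, against 50.9%, and TLE3 was at 17 of the 150 FOXA1 sites near them (11.3%). APOA1, COL3A1, CD79A and ALB led, and PTPRC (18 FOXA1 sites), LYZ (8) and CD14 (7) had none. Without TLE3 replicate 2 that list had 20 of 24 and ribosomal protein genes had 21 of 24, against 73.9% of all protein-coding genes. Lists share sites where genes are neighbours, and no list was tested.

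With a window of 10 kb in place of 50 kb the counts with TLE3 were lower, unequally by list. Of all protein-coding genes, 20.6% had TLE3 within 10 kb. The share at the lists' FOXA1 numbers was not worked out for this window. Luminal identity genes had TLE3 near 18 of 24, Groucho family and corepressor genes near 11 of 18, and TGF-beta and epithelial-mesenchymal transition genes near 10 of 20. Apocrine and steroid-responsive genes had 9 of 20, ERBB and MAP kinase feedback genes 10 of 20, DNA-binding Groucho partners 8 of 22 and WNT and NOTCH signalling genes 9 of 22. Forkhead genes had 5 of 20, ribosomal protein genes 4 of 24 and genes of other cell types 6 of 24.

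**Figure D5:**
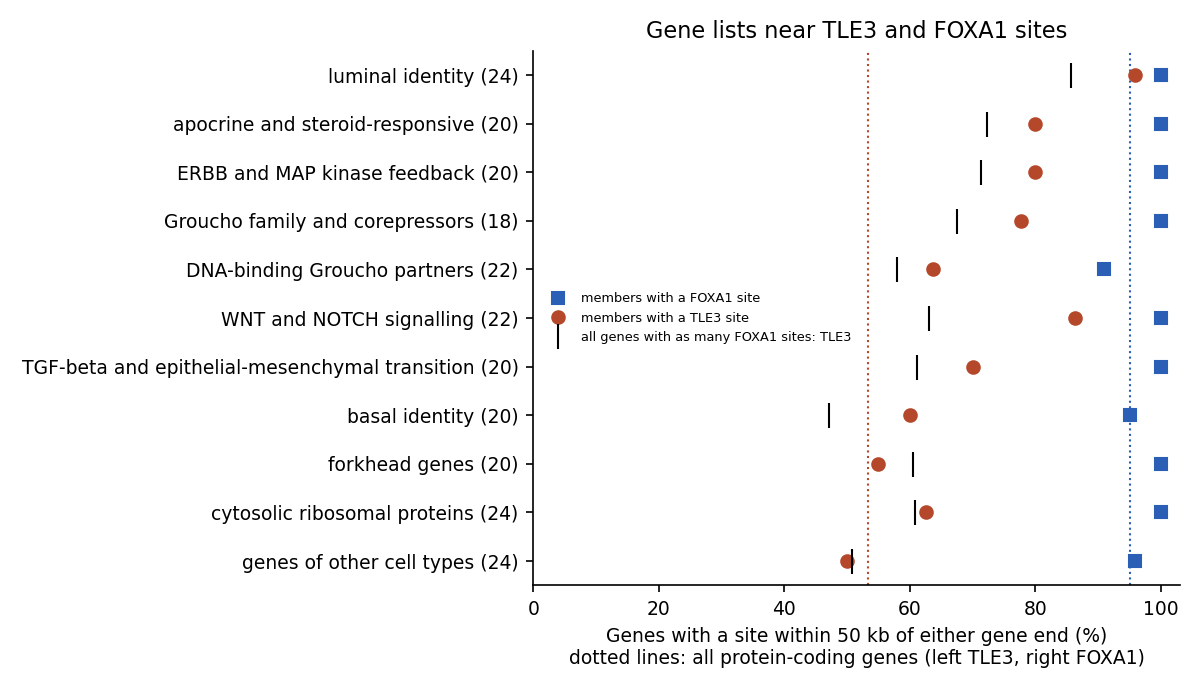
Each row is a gene list with its number of members, and the x axis is the percentage of members with a site within 50 kb of either gene end, for FOXA1 (blue squares) and TLE3 (red circles). Black ticks give the percentage of all protein-coding genes with TLE3 at the list's numbers of FOXA1 sites, and dotted lines the values of all protein-coding genes, 53.4% for TLE3 and 95% for FOXA1. TLE3 lies right of the tick for 9 of the 11 lists and left of it for forkhead genes and genes of other cell types.

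Single genes with most TLE3 were not members of these lists. SNX27, a sorting nexin gene, had 12 TLE3 sites, and 11 of its 23 FOXA1 sites held TLE3, with a best site at 96.3 and 93.9 in the TLE3 libraries. TPRG1 and COLEC10, a collectin gene, had 11 each, among 26 and 25 FOXA1 sites. ABCC11, a transporter gene known from apocrine secretion, and PAWR, a pro-apoptotic gene, had 10 each, among 27 and 21, and their best TLE3 sites stood at 99.0 and 98.4 and at 99.8 and 99.6. In the other direction, the histone gene H4C6 had 34 FOXA1 sites and no TLE3 site. UBL3 had 28, MEGF9 27, PHLDB2 23 and the ubiquitin ligase gene WWP1 22, also with no TLE3 site. The best FOXA1 sites near these 5 genes had mean percentiles from 86.0 to 95.6. They lay below the best FOXA1 sites near the 5 genes with most TLE3 (98.0 to 99.9). Both sets were chosen by their TLE3 sites, which followed FOXA1 rank over all sites, so this order is not a separate result.

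Forkhead motifs were more frequent in promoters with both factors than in promoters with FOXA1 alone. The letters TGTTTAC were searched on both strands, along with TGTTTGC, the variants TATTTAC plus TATTTGC, and lastly TGTTGAC together with TATTGAC, in 34789 windows of 300 bases from 250 before to 50 after a start. A match stood in 15.1% of all windows. It stood in 230 of 594 windows that overlapped both a FOXA1 and a TLE3 site (38.7%), in 1401 of 8639 with a FOXA1 site and no TLE3 site (16.2%), and in 14.2% of those with neither. Under FOXA1 sites of the highest rank decile the shares lay closer, at 160 of 343 (46.6%) with TLE3 and 163 of 404 (40.3%) without. The windows also differed in base composition, with a median GC content of 56.3% for both factors, 63% for FOXA1 without TLE3 and 56% for neither, and its part in the shares was not tested.

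Motifs of TCF, RUNX, HES, AP-2 and GATA factors stood in promoters with both factors at shares closer to those of all windows, and some of them differed from promoters with FOXA1 alone. The GATA letters AGATAA stood in 11.6% of windows with both factors, 6.02% with FOXA1 and no TLE3, and 10.4% of all windows. Under FOXA1 sites of the highest rank decile GATA stood in 43 of 343 windows with TLE3 (12.54%) and 19 of 404 without (4.70%), a wider ratio than for the forkhead motif there. The HES letters CACGTG or CACGCG went the other way, with 20.2% for both factors, 25.2% for FOXA1 without TLE3 and 17.4% of all windows, and 14.6% against 27.7% in the highest decile. The RUNX letters TGTGGT stood in 13.3%, 10.3% and 13.1%, in the same order of windows. The TCF letters ATCAAAG stood in 2.02%, 1.78% and 2.64%, and the AP-2 letters GCCNNNGGC in 28.5%, 27.4% and 23.2%. The difference in GC content given above applies to these shares too. Under FOXA1 sites of the highest rank decile it was wider, with a median of 52% with TLE3 and 62.7% without. Its part in the GATA and HES shares was not tested. A match is only the letters in the window, and sites away from starts, which are most sites of both factors, were not searched.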

How the data were processed

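Peak lists of 4 libraries of MDA-MB-453 were analysed, with those of SKBR3 and T47D as other readouts. The submitters' processing notes name Trim Galore, BWA 0.7.5a, SAMtools, MACS2 and hg38. Of caller settings, controls and filters nothing is given in the sources used here. Each library has its own list, so replicates were not pooled. The deposited score of each peak is the authors' own value. What it measures is not stated, and it served only to rank peaks within a list. Lists give no summits or read counts, so centres stand for positions and depth is unknown.

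Peaks off chromosomes 1 to 22 and X were left out (1 in each FOXA1 list). No 2 of the lists shared more than 0.00881% identical intervals. Sites were ranked by the mean over replicates of the percentile of the best peak. Overlap means at least 1 bp, near a start a centre within 1 kb, near a gene either end within 50 kb, and a cluster centres joined within 12500 bp. Gene bodies came from a RefSeq table of GRCh38.p14 (19974 protein-coding genes) and starts from a RefSeq promoter table (34961 starts of 27195 genes, 15812 of them protein-coding). Chromosome 8 was not used here for distances to starts. Of 234 entries in 11 gene lists, 234 were matched by symbol.

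Factors were compared over libraries by exact two-sided permutation. Sites and genes are not replicates and are described without a test. The members and lists were chosen with earlier results of these data known. Named were 11 fixed genes, the nearest gene of the best ranked sites and clusters of each kind, the genes with most TLE3 sites or most FOXA1 sites without TLE3, and in each list the best ranked members and those with most FOXA1 sites without TLE3. NRG1 and CTBP1 fall outside this rule and were added after their values were seen, and some genes the rule gives are not reported here. Alternatives were each library left out, equally long lists, the upper 50% of each list, other windows, overlaps and weightings, a score of 10 or more and a replicate block. The comparison between lines, the use of either gene end and the weighting of deciles by sites with TLE3 in other lines were chosen after seeing the data. Python 3.11.15, numpy 2.4.6, pandas 2.3.3 and scipy 1.17.1 were used, and scripts were tested on simulated data.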

Additional observations from a re-analysis of the deposited data

Results flagged for a closer look

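The difference between TLE3 and FOXA1 in the share of peaks within 1 kb of a gene start had opposite signs in different lines. It was −2.20 percentage points in MDA-MB-453, where both TLE3 libraries lay below both FOXA1 libraries, 3.65 points in SKBR3 and 7.85 points in T47D, where both TLE3 libraries lay above both FOXA1 libraries. Line by line the difference was not tested. The test of MDA-MB-453 against the other lines together is given with the result and did not pass, with or without the library labelled SKBR3 TLE3 replicate 2. Of the SKBR3 TLE3 libraries, replicate 1 (6.17%) lay just above FOXA1 (5.99% and 5.98%) and the library labelled replicate 2 (13.1%) well above.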

How the results depend on the processing

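Log2 peak number, peak width and closeness to starts between the factors kept their direction under each alternative run. With equally long lists, clustering turned to 1.64 points, the FOXA1 sites of other lines, with minus without TLE3, to −0.541, and the values were 71.8% of TLE3 sites with FOXA1, 63.2% of FOXA1 sites with TLE3, 0.743 for the chance to outrank, −5.83 points near starts and −1.02 inside genes. Within deciles of FOXA1 rank, closeness to starts turned to 2.37, inside genes to 1.42 and FOXA1 sites of other lines to −1.78, and the width difference was 119 bp. Within width deciles the chance to outrank was 0.659. With centres within 250 bp, 90.7% of TLE3 sites held FOXA1. Near starts, with minus without TLE3, the value was −5.20 within 3 kb and −4.22 with either gene end. Genes with TLE3 were 20.6% at 10 kb and 71.7% at 100 kb, and list entries with TLE3 fell from 166 to 92 at 10 kb. The cause of these changes was not tested. Equally long lists hold fewer peaks of both FOXA1 libraries and of TLE3 replicate 1.

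Leaving out each library in turn gave 96.7% to 99.8% of TLE3 sites with FOXA1, 11.4% to 29.7% of FOXA1 sites with TLE3, 366 to 483 bp more width with TLE3, 0.899 to 0.941 for the chance to outrank, −3.85 to −3.11 points near starts, −0.222 to −0.0415 inside genes (−0.249 with all), 53.4% to 73.9% of genes with TLE3, and 24.1 to 37.5 points for FOXA1 sites of other lines (29.9 with all). In each of these ranges 1 extreme came without TLE3 replicate 2.

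The replicate block (pairs by number) left the log2 peak number at −2.45, width at −32.5 bp, starts at −2.20 and clustering at −40.4, each with an exact sign-flip permutation p = 0.5, the smallest 2 pairs allow. Same-numbered libraries deviated to the same side in 3 of 4 measures.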
